A study of Mus musculus with 6 samples.

Results

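Injured neurons switch on or raise a known group of genes tied to axon damage and regrowth, and 8 of them are described here in irradiated mouse thalamus with and without NeuroD1 virus: Atf3, Jun, Sox11, Klf6, Gap43, Sprr1a, Flrt3 and Ecel1. They were taken by symbol from the 21899 genes of the count table, and all 8 were found. As genes that injured neurons express, they were chosen on the RN against RC counts of these same mice, so their values, and the calls that the fit over all genes made for them, are given as a description and support nothing (SE, standard error). All samples were unsorted thalamic tissue, picked with tweezers from under the hippocampus in a coronal slice of the brain, of wild-type male C57BL/6J mice, bought at 8 to 10 weeks of age, whose left thalamus had received 50 Gy of gamma rays in a single dose. At 2 weeks after irradiation, RC mice (n = 3) received 2 µL of AAV9 GFAP104::tdTomato, which carries a red fluorescent protein, and RN mice (n = 3) the same volume of AAV9 GFAP104::mND1-tdTomato, which also carries mouse NeuroD1. The tissue was taken at 6 weeks. The GFAP104 promoter favors expression in astrocytes, although AAV9 itself also enters neurons. Unirradiated mice were not analysed here, so the values compare both virus groups and say nothing of the level before irradiation.

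After an axon is cut or stressed, the kinase DLK and its downstream kinase JNK act on transcription factors such as Jun and Atf3, and these, with Sox11 and Klf6, are known to drive a growth program in peripheral neurons that regenerate. Effectors of this program include Gap43, a growth cone protein, and Sprr1a, a small proline-rich protein otherwise known from skin. Many neurons of the central nervous system are known to mount it only weakly.

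Library totals lay between 16561663 and 18657015 counts, and 14956 genes, the 8 among them, passed the filter on low counts. Neurod1 (ENSMUSG00000034701) was counted 84, 91 and 90 times in RC against 1123, 1711 and 910 times in RN, the direction the labels give. All 12 thalamic markers were measured, with summed levels of 1134 to 2258 CPM (counts scaled to library size with TMM factors) in RC and 801 to 1549 CPM in RN, and all 12 had a negative log2 fold change (RN over RC). Choroid plexus markers, as a sum, were at 703 to 10961 CPM in RC and 404 to 439 CPM in RN. Hypothalamic markers were at 202 to 344 CPM in RC and 511 to 632 CPM in RN. Markers of neighboring tissue thus differed between the groups along with the virus.

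Of the 8 genes, Sprr1a, Atf3 and Ecel1 were higher in RN by at least 2-fold with an adjusted p below 0.05 in edgeR's quasi-likelihood test on all genes. They went from 0.753 ± 0.177 to 15.2 ± 3.70 CPM, from 12.6 ± 2.42 to 35.7 ± 5.79 CPM and from 43.2 ± 2.91 to 114 ± 25.4 CPM, respectively (mean ± SD, n = 3 mice per group). This call was made for 0.0602% of all 14956 tested genes in the higher direction, 0.0134% in the lower and 0.0735% in either, shares from which nothing is read because the genes were chosen on this contrast. Sox11 was also higher in every RN mouse than in any RC mouse, as were 8.18% of all tested genes (8.12% lay below), but it was not called. Jun, Gap43, Flrt3 and Klf6 overlapped between the groups. A positive log2 fold change was found for 7 of the 8, against 50.8% of all tested genes, and the median of the 8 was 0.64, against 0.0037. The library is bulk tissue, so more cells that express a gene and more RNA per cell cannot be told apart.

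**Figure D1:**
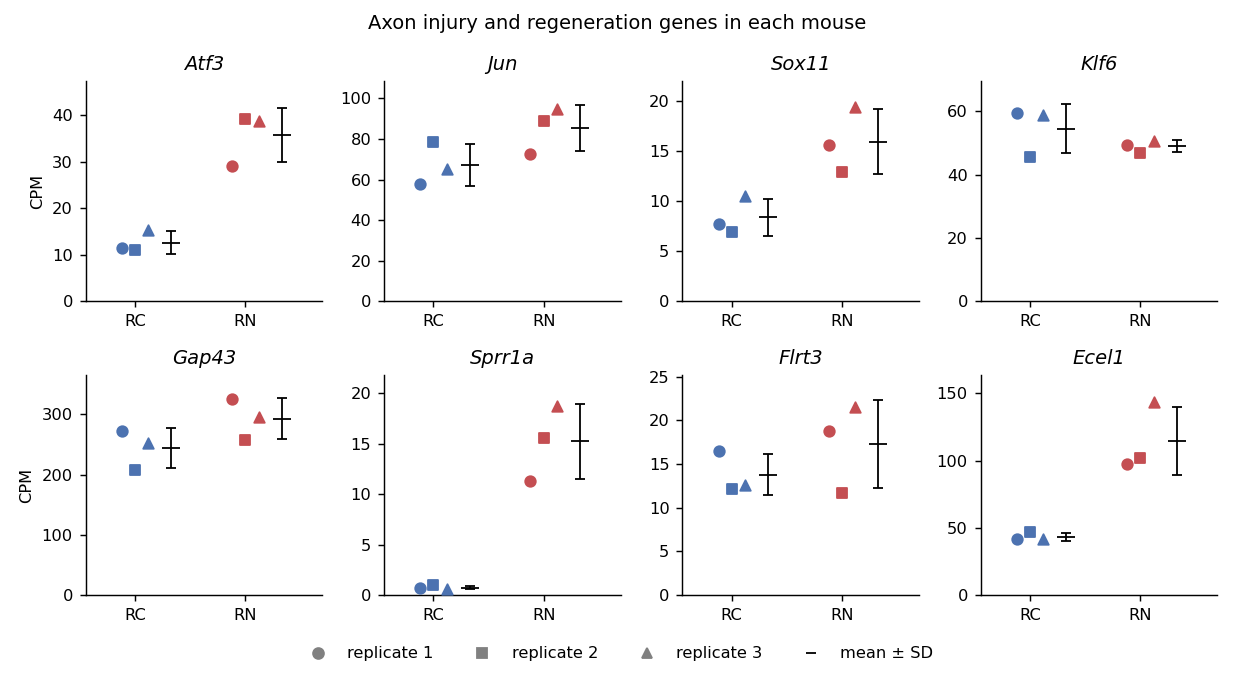
Level of each of the 8 genes in each mouse, in CPM on a linear axis from 0, with RC in blue and RN in red, one marker shape per replicate number, and the group mean ± SD beside the points. The RN points lie above all RC points for Atf3, Sox11, Sprr1a and Ecel1, and the groups overlap for Jun, Klf6, Gap43 and Flrt3.

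The sequences just before these genes are shown because Atf3 and Jun are transcription factors that bind AP-1 and CRE sites, and NeuroD1 binds E-boxes. RefSeq promoters (mouse build GRCm38.p6) were matched by symbol for 7 of the 8 genes, all but Gap43. The 250 bases before the start were searched on both strands for TGANTCA (AP-1), TGACGTCA (CRE), TTACGTCA and TGACATCA (CRE variants), CAGATG and CAGCTG (E-boxes). TGACATCA was added after the sequences had been read. No match overlapped another. The processing notes of the submitters name GRCm39, so these coordinates are not those of the read mapping. The windows of the 4 genes whose groups did not overlap are given with that of Jun, 5′ to 3′ on the strand of the gene, with every match in capitals. They lie at chr3:92485882-92486131 for Sprr1a, chr1:191183334-191183583 for Atf3, chr1:87156357-87156606 for Ecel1, chr12:27342719-27342968 for Sox11 and chr4:95052223-95052472 for Jun, all on the minus strand.
Sprr1a: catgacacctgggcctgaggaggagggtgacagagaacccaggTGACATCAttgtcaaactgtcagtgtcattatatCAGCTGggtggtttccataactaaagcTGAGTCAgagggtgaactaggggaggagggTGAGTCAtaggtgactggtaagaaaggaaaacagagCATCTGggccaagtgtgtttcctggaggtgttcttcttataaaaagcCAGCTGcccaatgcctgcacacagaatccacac
Atf3: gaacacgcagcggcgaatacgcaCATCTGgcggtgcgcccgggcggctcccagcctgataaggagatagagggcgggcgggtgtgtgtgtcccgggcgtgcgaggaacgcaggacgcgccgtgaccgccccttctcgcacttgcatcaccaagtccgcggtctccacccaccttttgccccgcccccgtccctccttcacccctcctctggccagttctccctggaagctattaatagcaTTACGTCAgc
Ecel1: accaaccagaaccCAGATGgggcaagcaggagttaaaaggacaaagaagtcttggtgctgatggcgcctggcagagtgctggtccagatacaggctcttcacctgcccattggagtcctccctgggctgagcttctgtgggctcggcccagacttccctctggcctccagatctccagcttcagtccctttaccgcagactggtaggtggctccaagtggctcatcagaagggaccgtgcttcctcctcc
Sox11: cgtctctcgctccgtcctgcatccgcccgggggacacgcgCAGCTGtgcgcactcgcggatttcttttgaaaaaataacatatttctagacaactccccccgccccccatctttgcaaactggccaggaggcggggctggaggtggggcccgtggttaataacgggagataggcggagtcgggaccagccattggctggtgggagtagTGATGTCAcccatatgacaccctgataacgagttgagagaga
Jun: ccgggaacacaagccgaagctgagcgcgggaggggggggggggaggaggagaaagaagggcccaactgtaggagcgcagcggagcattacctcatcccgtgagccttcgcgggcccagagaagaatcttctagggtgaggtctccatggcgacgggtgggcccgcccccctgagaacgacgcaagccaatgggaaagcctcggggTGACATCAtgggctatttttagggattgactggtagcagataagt

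Sprr1a held 6 matches, the most of the 7 windows. Its 2 AP-1 matches started at -146 and -116, counted from -1 for the last base before the start, and AP-1 matched in 6.75% of all 32851 windows of this length in the table. TGACATCA was found in 5 of the 7 windows, at -207 in Sprr1a, -45 in Jun, -42 in Sox11 (on the other strand), -41 in Flrt3 and -119 in Klf6. It was found in 2.93% of all windows. In Jun, Sox11 and Flrt3 the site thus lay within 4 bases of the same distance from the start. Because TGACATCA was added after these windows had been read, nothing is read from its share or its position. Atf3 had no TGACATCA but had TTACGTCA at -10, a match that 0.447% of all windows held. The consensus CRE matched in none of the 7 windows and in 1.55% of all. CAGATG matched in Atf3, Sprr1a, Flrt3 and Ecel1 and in 14.4% of all windows, and CAGCTG in Sox11 and Sprr1a and in 4271 of all windows. In Ecel1 this E-box was the single match of any kind. The TGACATCA windows held both genes that were higher in RN, Sprr1a among them, and genes whose groups overlapped, such as Klf6. A match describes these letters in the reference and not binding in the tissue.

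**Figure D2:**
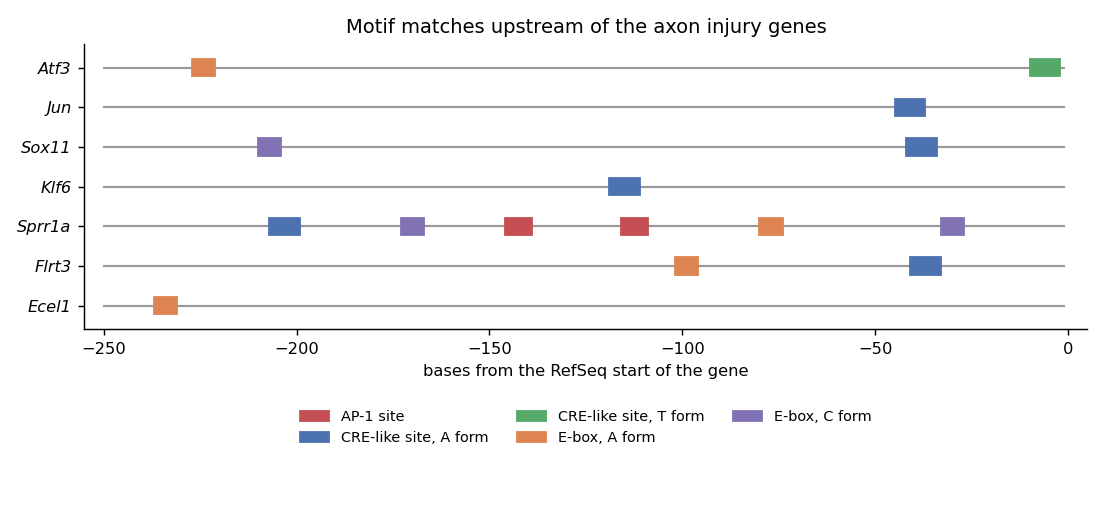
Motif matches in the 250 bases before the start of 7 genes, by distance in bases from the start, on either strand. The CRE-like site in its A form is TGACATCA and in its T form TTACGTCA, and the E-box is CAGATG in its A form and CAGCTG in its C form. The A form of the CRE-like site, added after the sequences had been read, appears in 5 of the 7 genes. Sprr1a carries 6 matches.

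Among the transcription factors, Atf3 (ENSMUSG00000026628), a stress-induced factor that is nearly absent from uninjured neurons, was at 11.6, 10.9 and 15.4 CPM in RC replicates 1 to 3 and at 29.0, 39.2 and 38.9 CPM in RN replicates 1 to 3. The lowest RN mouse stood clearly above the highest RC mouse. Its fitted log2 fold change was 1.50 (SE 0.179), a 2.83-fold difference. The call for Atf3 depended on single mice. It was lost without RC replicate 1, RC replicate 2, RN replicate 2 or RN replicate 3, with log2 fold changes of 1.44, 1.41, 1.42 and 1.43.

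Jun (ENSMUSG00000052684), the AP-1 subunit that JNK phosphorylates and a partner of Atf3, was at 57.7, 78.3 and 65.3 CPM in RC and at 72.8, 88.9 and 94.6 CPM in RN. RN replicate 1 lay below RC replicate 2, so the groups overlapped. The log2 fold change was 0.35 (SE 0.140).
Sox11 (ENSMUSG00000063632), a factor of immature neurons that returns in regenerating ones, was at 7.74, 6.93 and 10.5 CPM in RC and at 15.6, 12.9 and 19.3 CPM in RN. All RN mice were above all RC mice. The log2 fold change was 0.93 (SE 0.214). This value moved with the tissue scores, to 0.54 with a choroid plexus score as a covariate and to 1.65 with a hypothalamic score.
Klf6 (ENSMUSG00000000078), a zinc finger factor that supports axon growth, was at 59.3, 45.5 and 58.7 CPM in RC and at 49.4, 46.8 and 50.6 CPM in RN. It was the single member with a negative log2 fold change, -0.16 (SE 0.118). The RN mice differed little from one another, with a coefficient of variation of 3.88%, and lay within the range of the RC mice.

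Among the effectors, Sprr1a (ENSMUSG00000050359), which promotes neurite outgrowth in sensory neurons, was counted 12, 16 and 11 times in RC against 191, 292 and 335 times in RN. In CPM these were 0.673, 0.956 and 0.630 in RC and 11.4, 15.6 and 18.7 in RN. Each RN mouse was thus more than 10 CPM above every RC mouse. The log2 fold change was 4.33 (SE 0.279), a 20.1-fold difference that was the largest of the 8 genes. In the 6 fits on 5 mice, this value ran from 4.15 to 4.53.
Sprr1a is also made by keratinocytes. Of the 12 keratinocyte markers, the summed level was 19.2 to 27.0 CPM in RC and 25.2 to 29.8 CPM in RN, 4 of the 6 tested ones had a positive and 2 a negative log2 fold change, and edgeR called none (0 at an unadjusted p under 0.05). Krt5, Krt14, Flg and Ivl had at most 6 counts in any mouse, and Krtdap had none. Those with the smallest p were Sfn, Trp63 and Dsp, with log2 fold changes of 0.69, -0.51 and 0.82. Dsp had 34 to 223 counts and Sfn 22 to 68, so not all of these markers were near absent.
Gap43 (ENSMUSG00000047261), a membrane protein of growth cones, was at 273, 207 and 253 CPM in RC and at 325, 258 and 295 CPM in RN. RC replicate 1 was above RN replicate 2, and the log2 fold change was 0.26 (SE 0.127). The difference in mean level, 48.6 CPM, was larger than the 14.5 CPM of Sprr1a, and Gap43 had the highest level of the 8.

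Ecel1 (ENSMUSG00000026247), a membrane metallopeptidase also known as DINE for its induction in damaged neurons, was at 41.6, 46.6 and 41.4 CPM in RC and at 97.8, 102 and 144 CPM in RN. The RC mice lay close together, and RN replicate 3 was far above the other two RN mice. The log2 fold change was 1.41 (SE 0.154), 2.65-fold, and the difference in mean level of 71.3 CPM was the largest of the 8. The call for Ecel1 was lost without RC replicate 1, RC replicate 2, RC replicate 3 or RN replicate 2, with log2 fold changes of 1.38, 1.46, 1.38 and 1.48.
Flrt3 (ENSMUSG00000051379), an adhesion protein that binds Unc5 receptors and latrophilins, was at 16.5, 12.2 and 12.7 CPM in RC and at 18.7, 11.7 and 21.5 CPM in RN. RN replicate 2 had the lowest value of all 6 mice while the other two RN mice had the highest. The log2 fold change of 0.33 (SE 0.236) was within the spread between mice.

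Levels of different genes were compared per kilobase of exon, with exon lengths from the mouse annotation GENCODE M21. In RC the order was Gap43 at 160 CPM per kb, Jun at 21.0, Klf6 at 12.4, Ecel1 at 12.3, Atf3 at 5.86, Flrt3 at 2.83, Sox11 at 1.01 and Sprr1a at 0.934. Klf6 and Ecel1 overlapped over the RC mice, as did Sox11 and Sprr1a, and the other neighbors did not. In RN the order was Gap43 at 192 CPM per kb, Ecel1 at 32.7, Jun at 26.8, Sprr1a at 18.9, Atf3 at 16.6, Klf6 at 11.1, Flrt3 at 3.56 and Sox11 at 1.92. Over the RN mice, the ranges of Ecel1, Jun, Sprr1a and Atf3 each overlapped with the next of them, but their order was the same within each RN mouse. Sprr1a thus went from the lowest place to the fourth, and Klf6 from the third to the sixth.

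Labels give no pairing of mice, and the main fit used none. The replicate numbers were read as pairs for description only, since same-numbered mice deviated together across genes, at correlations of 0.173, 0.120 and 0.209. The unmatched RC replicate 1 and RN replicate 2 reached 0.156. In all 3 pairs, the RN mouse was above its RC partner for Atf3, Jun, Sox11, Gap43, Sprr1a and Ecel1. This held in 2 pairs for Flrt3 and in 1 for Klf6. For Atf3, Sox11, Sprr1a and Ecel1, whose groups did not overlap, any pairing gives 3 of 3 pairs. The RN mouse with the most Neurod1, replicate 2, was not the highest for most of these genes. RN replicate 3, which had the fewest Neurod1 counts, was the highest of the 6 mice for Jun, Sox11, Sprr1a, Flrt3 and Ecel1.

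Pairs of the 8 genes differed in their correlations, which rest on 6 mice and are a description only. Over the 6 mice, 23 of the 28 pairs of genes had a positive Pearson correlation of log2 CPM, with a median of 0.60, a value that includes the group difference. After each group mean was removed, 16 of the 28 were positive, with a median of 0.26 (n = 6 mice that share their library with all genes). Sprr1a and Ecel1 kept together in both, at 0.99 and 0.81, as did Jun and Sprr1a, at 0.79 and 0.91. Klf6 and Gap43 were at 0.24 over all mice and at 0.85 within the groups. Jun and Gap43 went opposite ways within the groups, at -0.85.
The tested genes most like the mean of the 8 over the 6 mice were Gm20878, Syt6, Ece2, Atcay and Klf10, with correlations of 0.993, 0.991, 0.990, 0.990 and 0.987. The first is a predicted gene, Syt6 is a synaptotagmin and Atcay encodes the brain protein caytaxin. All 5 were higher in every RN mouse than in any RC mouse. The mean of the 8 also did not overlap between the groups, so these correlations include the group difference and nothing more is read from them.

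**Figure D3:**
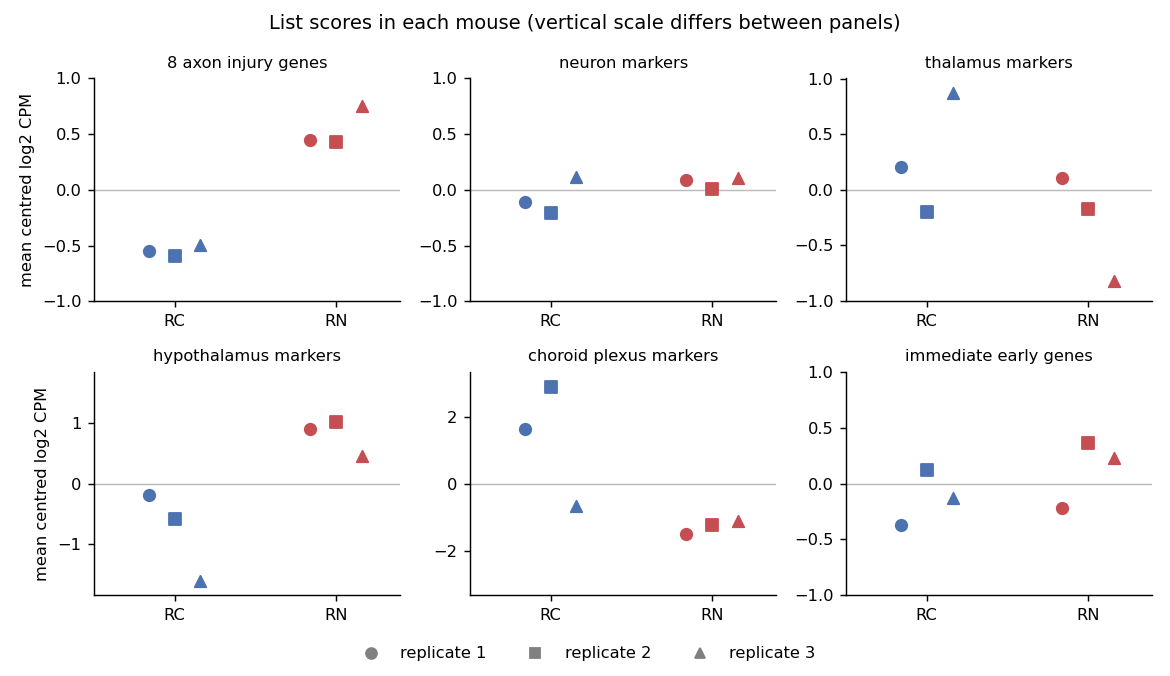
Score of each gene list in each mouse, the mean of log2 CPM of its tested genes after each gene was centered over the 6 mice, with RC in blue and RN in red. The vertical scale differs between panels. The 8 axon injury genes run from -0.60 to -0.49 in RC and from 0.43 to 0.75 in RN, the hypothalamic markers also do not overlap, and the neuron markers do.

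Markers of other tissue moved with the groups. Of the 19 tested hypothalamic markers, 17 had a positive log2 fold change, against 50.8% of all tested genes, with a median of 1.45. In 11 of the 19, every RN mouse was above every RC mouse, against 8.18% of all tested genes. EdgeR called Gpr50 (log2 fold change 2.89, standard error 0.344, adjusted p = 0.0419, above RC in 3 of 3 RN mice). The hypothalamic peptide genes Oxt (oxytocin) and Trh (thyrotropin-releasing hormone) had log2 fold changes of 1.85 and 1.45. All 22 hypothalamic markers had counts in at least 1 mouse. All 14 choroid plexus markers had a negative value, with a median of -3.58, led by Ttr (transthyretin) at -5.85, with Otx2 at -1.75 and Slc4a5 at -4.68. Thalamic markers had a median of -0.58, with Tnnt1 at -1.13, Rgs16 at -0.89 (0.045 with the hypothalamic score as a covariate) and Ramp3 at -1.03, and RN replicate 3 had the lowest thalamic score of the 6 mice, -0.82. The part of these tissue differences in the values of the 8 genes was not tested.
With a hypothalamic score as a covariate, the log2 fold changes were 4.53 for Sprr1a, 2.01 for Atf3 and 1.60 for Ecel1, and edgeR called none of the 8. With a choroid plexus score they were 4.89, 1.19 and 1.55, again without a call. Neither score overlapped between the groups. The hypothalamic score was -1.60 to -0.19 in RC and 0.46 to 1.02 in RN. The choroid plexus score was -0.67 to 2.90 in RC and -1.52 to -1.11 in RN. These fits therefore cannot tell the score from the virus. Of the 6 libraries, RC replicates 1 and 2 held the most choroid plexus RNA, and with RC replicate 3 as the only control mouse, which is then assumed to vary like the RN mice, Sprr1a, Atf3 and Ecel1 had 4.58, 1.21 and 1.47 and no call.
Of 13 general neuron markers, 11 had a positive and 2 a negative value, with a median of 0.098 and summed levels of 5356 to 6602 CPM in RC and 6060 to 6491 CPM in RN. The 3 with the smallest p were Gad2, which makes GABA, at 0.50, Nefm, a neurofilament, at 0.25 and Eno2, a neuronal enolase, at 0.17. With a neuronal score as a covariate, Sprr1a was still called at 4.50, while Atf3 at 1.35 and Ecel1 at 1.41 were not.
Markers of peripheral sensory neurons and Schwann cells, which carry this program in nerve, did not separate the groups. The sensory list was at 17.0 to 28.1 CPM in RC and 23.0 to 31.0 CPM in RN, with 3 of 6 tested genes positive. Its markers Scn10a, Isl2 and Mrgprd had at most 18 counts in any mouse. Those with the smallest p were Isl1, Pou4f1 and Avil, with log2 fold changes of 0.64, 0.29 and -0.16, all with overlap. Isl1, also in the hypothalamic list, had 88, 56 and 117 counts in the RC mice against 132, 116 and 166 in the RN mice. The Schwann list was at 75.8 to 90.1 CPM in RC and 67.7 to 115.8 CPM in RN, with 2 of 5 tested genes positive.
Jun, Atf3 and Klf6 also respond within minutes to activity and to handling of tissue. Of 14 immediate early and heat shock genes, 12 had a positive and 2 a negative log2 fold change, with a median of 0.16 and summed levels of 362 to 506 CPM in RC and 407 to 600 CPM in RN. Fosb, Egr1 and Fos had log2 fold changes of 1.14, 0.49 and 0.79. Their part in the values of Jun and Atf3 was not tested.

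**Figure D4:**
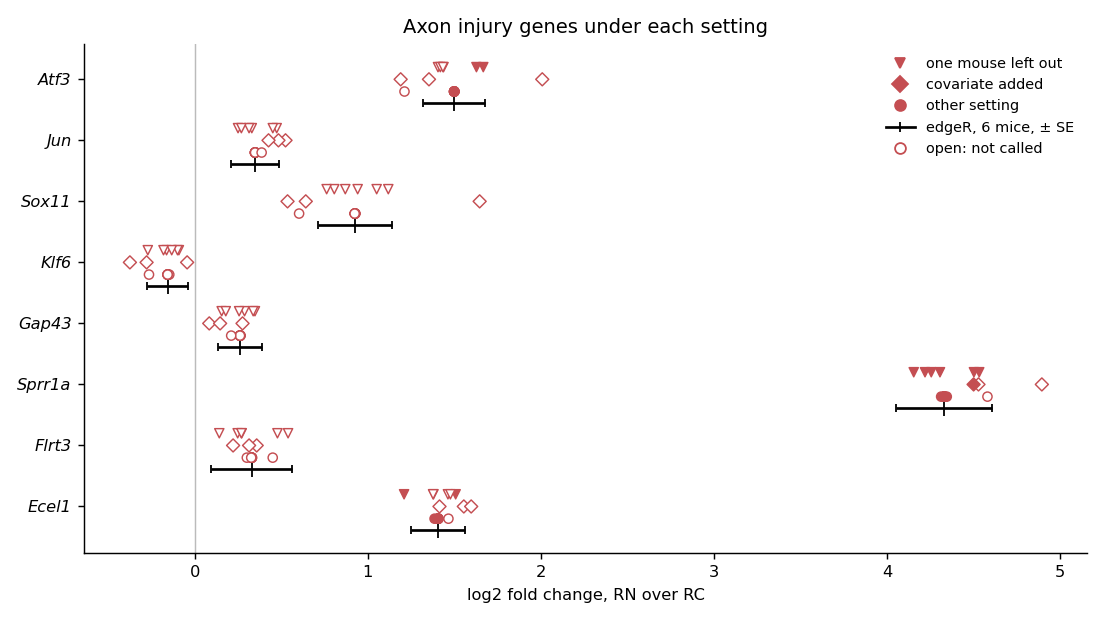
Log2 fold change (RN over RC) of each of the 8 genes under each setting, with triangles for fits that left out a mouse, diamonds for fits with a covariate and circles for the others, filled where the gene was called. The black bar is edgeR on all 6 mice with its standard error. Sprr1a stays above 4 throughout, Atf3 and Ecel1 stay above 1, and the signs of all 8 genes hold in all 18 alternative fits. Dropping the fold threshold or using the robust option leaves the log2 fold changes as they were, so their signs could not change.

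To describe the wider injury program, 149 other genes known from it were taken in 6 lists, of which 145 passed the filter. EdgeR called 1 higher and 0 lower in RN, with 24 higher and 6 lower at an unadjusted p under 0.05, and DESeq2's Wald test called 6 higher and 0 lower. The shares at an unadjusted p were 16.6% and 4.14% of the 145, against 5.44% and 6.33% of all tested genes. The lists were chosen with earlier results of these data known, so these shares are a description and support nothing. Fosb, Egr1 and Fos, which are among these genes, are also in the list of immediate early genes above. The median log2 fold change was 0.11, against 0.0037 over all genes.
Secreted factors and receptors held 11 of the 24 that were higher and 2 of the 6 that were lower. Of 32 tested, 22 were positive and 10 negative, with a median of 0.32. The called gene was Gal, the precursor of the neuropeptide galanin, which injured neurons make and which was known to differ in these mice. It had 106, 93 and 57 counts in the RC mice against 525, 1550 and 1341 in the RN mice. Its log2 fold change was 3.68 (SE 0.397, edgeR adjusted p = 0.0365). Gal is also a hypothalamic peptide, and its call was lost with the replicate block and when any mouse but RN replicate 1 was left out.
Plau, the urokinase protease, had a log2 fold change of 0.77 (SE 0.123, edgeR adjusted p = 0.0696) and was higher in 3 of 3 RN mice. Timp1, a protease inhibitor, had 42, 89 and 71 counts in the RC mice against 125, 322 and 210 in the RN mice. Its log2 fold change was 1.64 (SE 0.371, edgeR adjusted p = 0.136), and the replicate block gave an adjusted p of 0.0453. DESeq2 also called Inhba (an activin subunit), Tnc (the matrix protein tenascin C) and Nts (neurotensin), named here after their values were seen, with edgeR log2 fold changes of 2.30, 1.52 and 1.28. For these 3 genes the edgeR adjusted p ran from 0.139 to 0.208. RN replicate 1 was the lowest RN mouse for Timp1, Inhba and Tnc, and without it Tnc was called in edgeR with a log2 fold change of 1.86 (adjusted p = 0.0162).

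In the other 5 lists edgeR called no gene, and DESeq2 called Fosb. The numbers at an unadjusted p under 0.05 were 4 higher and 0 lower of 24 injury-response transcription factors, 2 and 2 of 29 growth cone and cytoskeletal genes, 4 and 0 of 17 stress and survival genes, 1 and 0 of 19 genes of axon damage signaling, and 2 and 2 of 24 inhibitors of axon growth. Their median log2 fold changes were 0.040, 0.15, 0.20, 0.042 and 0.00204.
Among the transcription factors, Fosb, an AP-1 subunit, had a log2 fold change of 1.14 (SE 0.297, edgeR adjusted p = 0.176, DESeq2 adjusted p = 0.00945). Among the growth cone genes, Marcksl1, a substrate of protein kinase C, was at 0.55 (SE 0.116, edgeR adjusted p = 0.126), while Csrp1, a LIM protein, was at -0.47 and the tubulin Tubb2b at -0.33. Growth cone genes did not follow Sprr1a in size. The stress genes with the smallest p were S100a10, Pcsk1 and Gadd45a, with 0.48, 0.72 and 0.53, and Pcsk1 was at -0.17 with the hypothalamic score as a covariate. In the DLK and JNK list, the proapoptotic gene Bcl2l11 was at 0.40 (edgeR adjusted p = 0.352), Map2k4 (a JNK kinase) at 0.13 and the JNK scaffold Mapk8ip3 at 0.099. Of the growth inhibitors, the proteoglycan receptor Ptprs was at 0.32, Plxna1 (a semaphorin receptor) at 0.28 and the proteoglycan Bcan at -0.36.

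**Figure D5:**
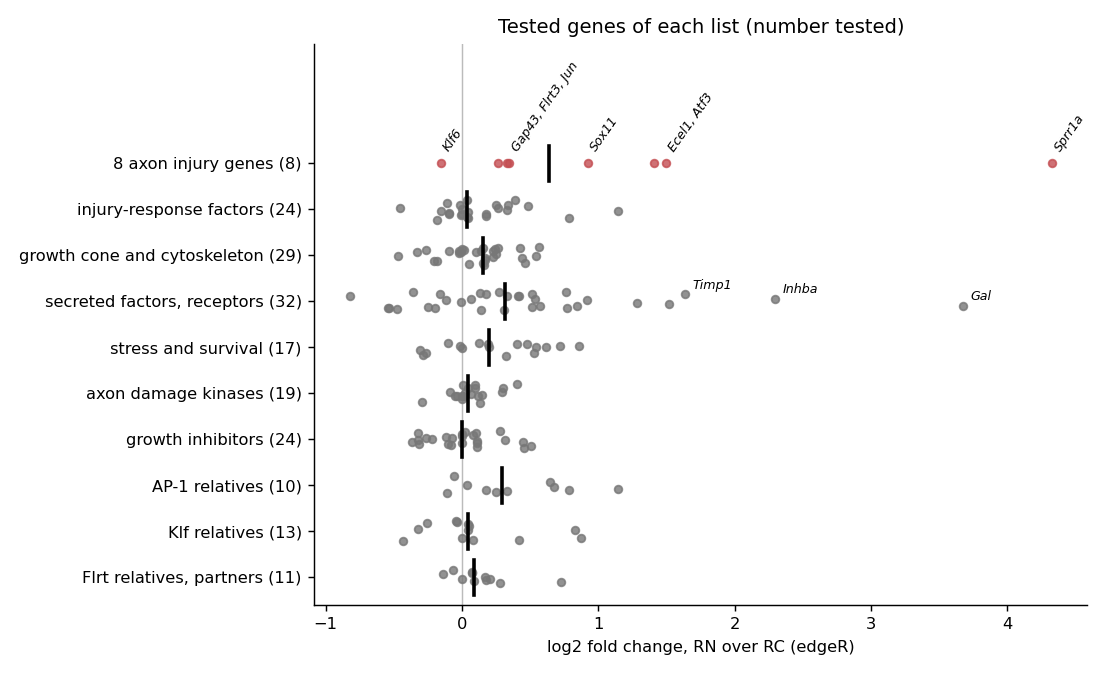
Log2 fold change (RN over RC, edgeR) of every tested gene of each list, one point per gene, with the list's median as a black bar and the number of tested genes in parentheses. Most points lie between -0.5 and 1, and Sprr1a at 4.33 and Gal at 3.68 stand apart.

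Relatives and binding partners of the 8 genes were also read. Of 61 found in the counts, 42 were tested and edgeR called 0, with 8 higher and 2 lower at an unadjusted p under 0.05, and DESeq2 called Fosb alone. The 8 and 2 were 19.05% and 4.76% of the 42, against 5.44% and 6.33% of all tested genes. These lists too were chosen with earlier results known, so nothing is read from the shares. They also share genes with the wider program. Fos, Fosb and Jund of the higher genes and Klf9 of the lower ones were counted there as well, as was the DESeq2 call of Fosb. Among 10 tested AP-1 relatives of Jun and Atf3, 8 were positive, Fosb, Fos and Jund with 1.14, 0.79 and 0.25. Of 13 tested Klf genes, Klf10 had 134, 139 and 140 counts in the RC mice against 242, 261 and 275 in the RN mice, for a log2 fold change of 0.87 (SE 0.134, edgeR adjusted p = 0.0666), against -0.43 for Klf15 and -0.32 for Klf9, which restrains axon growth. Sox4 and Sox12, the relatives of Sox11, were at 0.34 and -0.060, both with overlap, and Sox12 was at 0.062 with the hypothalamic score.
The Sprr genes other than Sprr1a were close to absent, except Sprr2a2, which had more counts than Sprr1a in each RC mouse. Sprr2a2 had 34, 35 and 32 counts in the RC mice against 119, 49 and 46 in the RN mice, for a log2 fold change of 1.07 (SE 0.429, edgeR adjusted p = 0.380), and RN replicate 1 gave most of this. The other 13 Sprr genes in the counts had at most 5 counts in any mouse, and 7 of them had none. A count of 0 allows up to 3 counts, here 0.160 to 0.179 CPM, for counting error only. Sprr genes are alike in sequence, and how the authors' counting shared reads between them was not stated.
Of the metallopeptidases related to Ecel1, Ece2 was at 0.31 (SE 0.0813, edgeR adjusted p = 0.185) and Mmel1 at 0.82, both without overlap, while Ece1, Mme and Phex were at 0.13, -0.11 and -0.48, with overlap and with signs that turned under the hypothalamic score, and Kel had at most 4 counts. Among the partners of Flrt3, the netrin receptor Unc5d was at 0.73 (SE 0.185, edgeR adjusted p = 0.169) and above RC in 3 of 3 RN mice. Robo1 and the latrophilin Adgrl3 were at 0.17 and 0.18, and Flrt1 and Flrt2 at 0.20 and -0.065.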

How the data were processed

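Bulk RNA-seq of thalamus was deposited by the authors as whole-number read counts per gene, one column per mouse, without normalization. The submitters' processing notes name fastp 0.18.0, FastQC, HISAT2 2.2.4, RSEM 1.2.19 and GRCm39, with no role or order, so the counts may be rounded RSEM estimates. The annotation and the use of strand are not given in the sources used here. Groups and replicate numbers came from the sample titles.

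Genes of low count were removed with filterByExpr of edgeR 4.0.16 (minimum count 10) in R 4.3.3. After TMM scaling, the quasi-likelihood test of edgeR (legacy option) compared the groups with no covariate, and p-values were adjusted by Benjamini-Hochberg over 14956 genes. Calls needed an adjusted p under 0.05 and at least a 2-fold change, the thresholds of the study, which used DESeq2. Standard errors are the log2 fold change divided by the square root of F. DESeq2 1.42.0 was an alternative. Log2 CPM used a prior count of 2. Labels do not say that mice of a group were independent beyond being separate samples, and p-values measure the spread between them. Library pairs within a group had a chi-square of 15.8 to 31.8 per degree of freedom, so each of the 6 was counted separately.

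Same-numbered mice deviated from their group means together, with correlations across genes of 0.173, 0.120 and 0.209, from the data and not from a stated litter or day. RC replicate 1 and RN replicate 2 did so at 0.156. The numbers were therefore used as a block in an alternative fit.

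On simulated counts with 200 of 14828 genes changed 4-fold, edgeR recovered 91.5% and DESeq2 90.0%, with 4.19% and 7.22% false calls. The simulation held no difference in tissue, and its changes were larger than those of Atf3 (2.83-fold) and Ecel1 (2.65-fold). The recovered shares thus do not apply to smaller changes, and a gene without a call may still differ.

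The 8 genes, the lists of the wider program, relatives and markers, and the alternatives were chosen with earlier results of these data known. Of the lists, Sprr2g, Sprr5 and the sensory marker Prrxl1 matched no symbol of the counts. The text names the 8 genes, Neurod1, up to 3 genes of each list by smallest p, called genes, the Sprr, SoxC, metallopeptidase and Flrt relatives, and the 5 genes most like the mean of the 8. For glial, vascular and immune marker lists counts and medians are given, with the astrocyte levels and Gpnmb, and these and a few markers near 0 were chosen after their values were seen. The alternatives were the Wald test of DESeq2, edgeR with the size factors of DESeq2, no filter, at least 10 counts in every mouse, no fold threshold, the replicate block, 3 tissue scores as covariates, the robust option and each mouse left out. EdgeR without its legacy option and RC replicate 3 as the only control were added after seeing the data.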

Additional observations from a re-analysis of the deposited data

How the results depend on the processing

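With 3 mice per group the number of calls depended on the settings. The log2 fold changes of the 8 axon injury genes kept their sign in all 18 alternative fits. Dropping the fold threshold or using the robust option leaves these values as they were, so their signs could not change there. The 3 calls among the 8 became 0 with the choroid plexus or the hypothalamic score as a covariate, 1 with the neuronal score, 0 with RC replicate 3 as the only control mouse and 1 to 3 when a mouse was left out. Over all genes, the 9 higher and 2 lower calls became 98 and 81 with DESeq2's Wald test, 36 and 7 without a filter on low counts, 17 and 5 with the replicate block, 0 and 1 with the choroid plexus score, 0 and 0 with the hypothalamic score, 15 and 4 with the neuronal score and 8 and 5 with RC replicate 3 alone. They ran from 3 to 26 higher (3 without RC replicate 2 or RN replicate 2, 26 without RN replicate 1) and from 0 to 18 lower (18 without RC replicate 3) when a mouse was left out. Covariates and left-out mice leave fewer degrees of freedom, and the choroid plexus and hypothalamic scores did not overlap between the groups. Other causes were not tested. The 1 call in the wider program became 6 with DESeq2 and 0 with the choroid plexus score, the hypothalamic score, the robust option or RC replicate 3 alone, and lay from 0 to 2 with a mouse left out (2 without RN replicate 1). With the replicate block it was Timp1 in place of Gal. The block changed no other call among the genes named, but Gpnmb and the keratinocyte and sensory markers were not followed. Relatives and partners had 1 call with DESeq2 and 0 otherwise.

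Signs were followed through the settings for most genes named, but not for Inhba, Tnc, Nts, Gpnmb or the keratinocyte and sensory markers. Of the genes followed, 7 changed sign in some setting. With the hypothalamic score these were Pcsk1 (-0.17), Sox12 (0.062), Ece1 (-0.14), Mme (0.11), Phex (1.44) and Rgs16 (0.045). With a mouse left out, Mme ran from -0.35 to 0.097 (0.078 without RC replicate 1, 0.097 without RN replicate 2), Phex from -0.83 to 0.20 (without RC replicate 3) and Sox12 from -0.12 to 0.021 (without RN replicate 2). The log2 fold change of Eno2 was -0.00199 with RC replicate 3 alone.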

Other observations

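Glial and vascular marker lists were read beside the neuronal ones, because Atf3, Jun and Klf6 are also expressed by glia and vessels. All 8 astrocyte markers had a negative log2 fold change in RN, with a median of -0.43. In 6 of them every RN mouse was below every RC mouse, against 8.12% of all tested genes. Their summed levels were 5941 to 7630 CPM in RC and 4088 to 5259 CPM in RN. Of 8 endothelial markers 7 were negative, with a median of -0.39. Of 9 oligodendrocyte markers 8 were negative, with a median of -0.19. Microglial markers were 4 positive and 4 negative, with a median of -0.018, and macrophage markers were 4 and 4, with a median of -0.037. Among the latter Gpnmb, a gene of lipid-laden macrophages, was at 1.39 (standard error 0.202, edgeR adjusted p = 0.0630) and above RC in 3 of 3 RN mice. EdgeR called 0 genes of these 5 lists, with 5 astrocyte, 5 endothelial, 1 oligodendrocyte and 1 macrophage marker lower and 1 microglial and 1 macrophage marker higher at an unadjusted p under 0.05.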
